A study of Mus musculus with 17 samples.

Results

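The genes described here are 9 of the hedgehog system of the mouse limb bud: the ligand Shh, its receptor Ptch1, its antagonist Hhip, the transducer Smo, the transcription factors Gli1, Gli2 and Gli3, and Hand2 and Grem1, which stand upstream of Shh and between Shh and the apical ridge. They were taken by name from a table of 34682 genes, and all 9 were found. The 15 libraries came from E12.5 limb buds (the embryonic day in the labels): wild type (WT, 4 libraries), the duplication lines Dup-C (2) and Dup-L (2), the line Dup-LΔBor (4), and ΔBor in a heterozygous (2) and a homozygous (1) state, called het and hom below. All variants lie at the Sox9 and Kcnj genes; ΔBor removes a boundary between chromatin domains, and Dup-LΔBor carries a duplication together with that removal. The labels give neither the zygosity of the 3 duplication lines, nor the strain, nor which limbs were taken. The 2 fingertip samples of E17.5 were not analysed here.

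Shh is secreted from the posterior margin of the limb bud, the zone of polarizing activity. It binds Ptch1, which otherwise holds Smo inactive, and active Smo stops the cutting of Gli3 into a repressor and lets Gli2 and Gli3 act as activators. Ptch1, Gli1 and Hhip are direct targets of the signal: Ptch1 and Hhip bind and restrain the ligand, and the Gli1 level is widely used as a readout of the pathway. Hand2, a basic helix-loop-helix factor of the posterior bud, turns on Shh, and the BMP antagonist Grem1 links Shh to the FGF signals of the ridge. In the limb, Shh is expressed early and its transcription ends as the digits form, while Ihh, a second ligand of the same receptors, appears in cartilage.

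Promoter sequences were matched by symbol to a RefSeq table of GRCm38.p6, a build other than the mm9 build of the counts, and 7 of the 9 genes were found there: Ptch1, Gli2, Gli3, Hhip, Smo, Hand2 and Grem1. The 250 bases before the start site of 4 genes are shown, because Ptch1 and Hhip are the direct targets whose levels went apart, and Gli2 and Hand2 are genes that fell in Dup-L. Capitals mark ACCACCC, the core of the sequence bound by Gli proteins, searched on both strands (the other strand reads GGGTGGT). That core was found in 3.92% of 32851 such windows and in 1 of the 7 windows of the genes here, that of Gli2, where it begins 205 bases before the start. No match says only that these letters are not in the window.
Ptch1, chr13:63565736-63565985, minus strand, GRCm38.p6: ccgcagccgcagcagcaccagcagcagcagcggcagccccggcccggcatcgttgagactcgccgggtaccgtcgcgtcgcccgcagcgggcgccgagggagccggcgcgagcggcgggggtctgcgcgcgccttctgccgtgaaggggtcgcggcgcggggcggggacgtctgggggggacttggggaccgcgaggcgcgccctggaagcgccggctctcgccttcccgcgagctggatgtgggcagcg
Hhip, chr8:80058009-80058258, minus strand, GRCm38.p6: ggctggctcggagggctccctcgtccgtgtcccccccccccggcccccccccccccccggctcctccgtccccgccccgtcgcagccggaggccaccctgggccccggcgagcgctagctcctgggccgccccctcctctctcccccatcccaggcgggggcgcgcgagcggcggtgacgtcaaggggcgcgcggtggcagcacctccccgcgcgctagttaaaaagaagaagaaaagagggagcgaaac
Gli2, chr1:119053620-119053869, minus strand, GRCm38.p6: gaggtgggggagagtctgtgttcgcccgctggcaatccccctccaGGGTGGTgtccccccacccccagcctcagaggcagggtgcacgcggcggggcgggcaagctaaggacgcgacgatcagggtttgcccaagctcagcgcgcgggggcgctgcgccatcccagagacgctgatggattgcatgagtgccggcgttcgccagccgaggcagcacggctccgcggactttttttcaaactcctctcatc
Hand2, chr8:57320733-57320982, plus strand, GRCm38.p6: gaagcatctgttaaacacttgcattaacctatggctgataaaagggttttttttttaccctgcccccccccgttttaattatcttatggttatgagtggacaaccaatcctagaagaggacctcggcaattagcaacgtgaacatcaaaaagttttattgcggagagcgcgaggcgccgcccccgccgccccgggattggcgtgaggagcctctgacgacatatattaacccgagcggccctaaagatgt
The windows also differed in base composition. The share of G and C was 78.4% before Ptch1, 76.0% before Hhip, 67.2% before Gli2 and 49.2% before Hand2, beside a median of 52.4% over all windows. The transcripts were ordered otherwise, with 59.3% for Hand2, 59.0% for Gli1, 57.8% for Smo, 57.5% for Gli2, 50.2% for Ptch1, 48.4% for Gli3, 44.7% for Grem1 and 41.2% for Hhip. The order of the transcripts returns below, beside the differences between genotypes.

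The libraries held 34486256 to 53711742 counts. The column headers carry library numbers in 2 ranges, with 9 libraries in the first (WT 1, WT 2 and all Dup-C, Dup-L and ΔBor libraries) and 6 in the second (WT 3 and 4 and the Dup-LΔBor columns R2 to R5). Pitx1, the hindlimb regulator, separated the libraries into 11 at 39.9 to 116 CPM (counts scaled to the library size and between libraries by the trimmed mean of M-values) and 4 at 0.518 to 1.83 CPM, namely WT 2, WT 4 and both Dup-L libraries. Tbx4, another hindlimb gene, was at 18.8 to 27.6 CPM in those 4 and at 62.2 to 109 CPM in the 11, and Tbx5, the forelimb gene, was at 184 to 233 CPM in the 4 and at 86.2 to 136 CPM in the 11. Limb type, as these genes read it, and genotype therefore cannot be told apart in Dup-L against Dup-LΔBor, and only WT holds libraries of both kinds. Limb bud mesenchyme was present in every library: the 8 listed markers, which include Prrx1, Twist1 and Lhx9, summed to 1110 to 1652 CPM. No label says that replicates are separate embryos, so the p-values measure the spread between these libraries, which may be technical.

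Shh was close to absent at this stage. WT libraries 1 to 4 held 6, 1, 0 and 0 counts, Dup-C held 1 and 21, both Dup-L libraries held 0, and Dup-LΔBor R2 to R5 held 6, 2, 12 and 0. ΔBor het held 1 and 1 and ΔBor hom held 7, which gives 58 counts over all 15 libraries. The highest level was 0.564 CPM, in Dup-C 2, and the median FPKM (fragments per kilobase of transcript scaled to library size, the authors' values) was 0.01. A library at 0 allows up to 3 counts, an upper limit that covers counting error only. The 4 libraries with low Pitx1 held at most 1 count each, and the 11 others held 0 to 21. Markers of notochord and floor plate, tissues that also make Shh, were near 0, with 6 listed genes summing to 0.503 to 1.72 CPM in a library.

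The other ligands were also low. Ihh, the ligand of cartilage, was at 1.53 to 8.05 CPM and Dhh, the ligand of nerve sheath and testis, at 0.106 to 0.560 CPM. On the FPKM scale, which allows genes to be compared, the medians were 0.91 for Ihh, 0.11 for Dhh and 0.01 for Shh. Ihh was thus the ligand with the most RNA in these limb buds.

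The other 8 genes were readily measured, and their levels per length fell in a clear order. The median FPKM was 63.2 for Smo, 44.9 for Hand2, 29.6 for Gli3, 18.2 for Gli2, 14.9 for Ptch1, 13.0 for Gli1, 4.74 for Grem1 and 2.50 for Hhip. Neighbours in that order overlapped between libraries, except that Gli1 (9.03 to 20.4 FPKM) lay above Grem1 (2.68 to 8.79 FPKM) and Hhip (1.25 to 5.34 FPKM) lay above Shh (0 to 0.18 FPKM). The 3 direct targets were therefore spread over this order, with Ptch1 and Gli1 close to each other and Hhip below them.

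**Figure D1:**
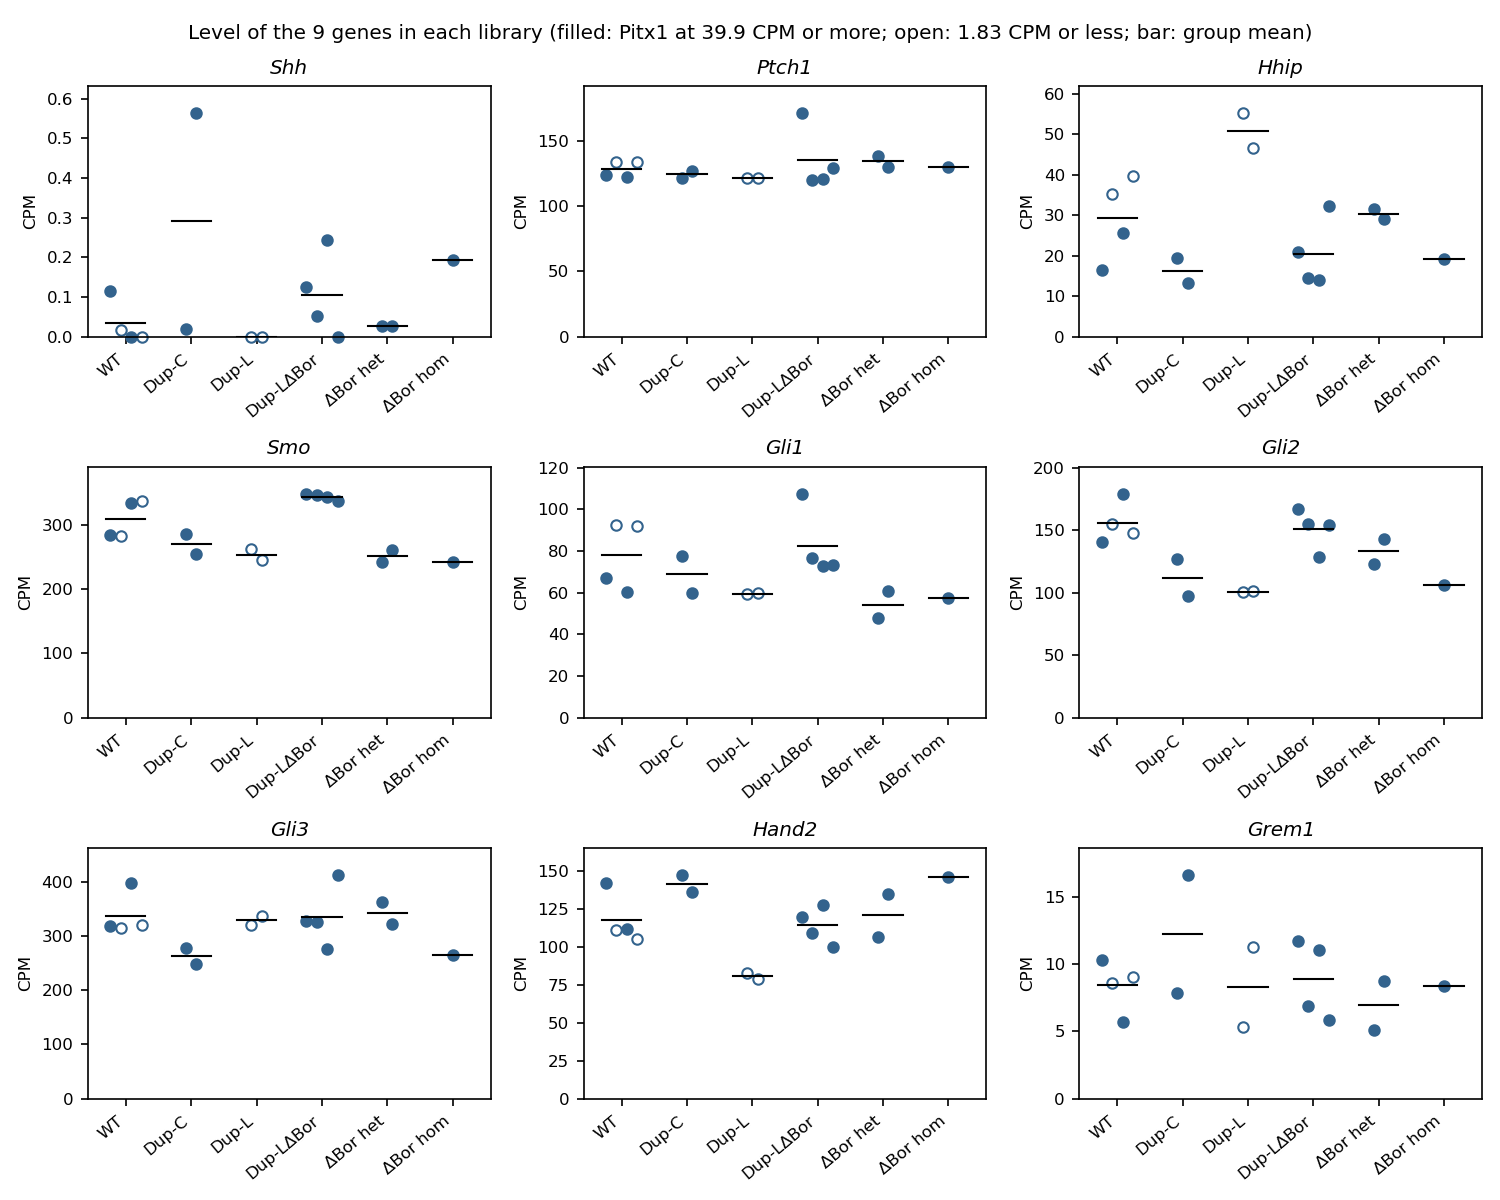
Level of each of the 9 genes in CPM (y axis, from 0) in each library of the 6 genotypes (x axis), with group means as bars; open points are the 4 libraries in which Pitx1 was at 1.83 CPM or less. Ptch1 is nearly flat at 120 to 172 CPM, and the open points of Hhip, at 35.2 to 55.2 CPM, lie above all filled ones.

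Ptch1, the receptor, varied least of the 9. Its level was 120 to 172 CPM with a coefficient of variation of 9.93% over the 15 libraries, and 11.6% of the genes tested varied less. WT libraries 1 to 4 stood at 124, 134, 122 and 134 CPM, Dup-C at 122 and 127, Dup-L at 122 and 122, and ΔBor het at 139 and 130 CPM. Dup-LΔBor R2 to R5 stood at 172, 120, 121 and 129 CPM, so that R2 was the highest library of all, R5 lay among the WT values and R3 and R4 lay just below the lowest WT library. ΔBor hom stood at 130 CPM. Apart from R2 and ΔBor het 1, every library lay within 2 CPM of the WT range.

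Hhip, the secreted and membrane-bound decoy for the ligand, varied most among the genes with more than a few counts. Its coefficient of variation was 46.0%, and 88.8% of the genes tested varied less. WT libraries 1 to 4 stood at 16.5, 35.2, 25.6 and 39.6 CPM, and both Dup-L libraries stood higher, at 55.2 and 46.5 CPM. Dup-C stood at 19.4 and 13.1 CPM, Dup-LΔBor R2 to R5 at 20.8, 14.4, 14.1 and 32.3 CPM, ΔBor het at 31.5 and 29.0 CPM and ΔBor hom at 19.1 CPM. The 4 libraries with low Pitx1 were the 4 highest in Hhip, at 35.2 to 55.2 CPM, and did not overlap the other 11, at 13.1 to 32.3 CPM. This held among the WT libraries alone, where WT 2 and WT 4 lay above WT 1 and WT 3. The share of all genes that split in the same way was not counted, and both Dup-L libraries are among the 4.

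Smo, the transducer, was highest in Dup-LΔBor. R2 to R5 stood at 348, 347, 343 and 337 CPM, WT libraries 1 to 4 at 284, 282, 333 and 337 CPM, Dup-C at 286 and 255, Dup-L at 262 and 245, ΔBor het at 242 and 260 and ΔBor hom at 242 CPM. The 6 libraries of the second range of numbers were the 6 highest, at 333 to 348 CPM, beside 242 to 286 CPM in the 9 of the first. The library number range thus moved with the Smo level, WT included; its part in the genotype differences was not tested beyond the fits that carry the range as a term.

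Of the Gli factors, Gli1 stood highest in WT 2 and WT 4, at 92.6 and 92.3 CPM, and in Dup-LΔBor R2, at 107 CPM. The other WT libraries stood at 67.2 and 60.4 CPM, the other Dup-LΔBor libraries at 76.9, 72.7 and 73.4 CPM, Dup-C at 77.8 and 59.7, Dup-L at 59.3 and 59.6, ΔBor het at 47.8 and 60.8 and ΔBor hom at 57.3 CPM. Gli2, the main activator, stood at 140, 155, 179 and 148 CPM in WT libraries 1 to 4 and at 167, 155, 129 and 154 CPM in Dup-LΔBor. It was lower in Dup-L, at 100.4 and 101.3 CPM, and in ΔBor hom, at 106 CPM, with Dup-C at 127 and 97.2 and ΔBor het at 123 and 143 CPM. Both Dup-L libraries lay below every WT and Dup-LΔBor library. Gli3, which supplies the repressor, ranged from 248 CPM in Dup-C 2 to 412 CPM in Dup-LΔBor R5, and its Dup-L values, 321 and 336 CPM, lay inside the WT range of 314 to 398 CPM.

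Hand2 was lowest in Dup-L. It stood there at 82.8 and 78.9 CPM, beside 142, 111, 111 and 105 CPM in WT libraries 1 to 4. Dup-C stood at 147 and 136 CPM, Dup-LΔBor R2 to R5 at 120, 109, 127 and 99.9 CPM, ΔBor het at 107 and 135 and ΔBor hom at 146 CPM. The Dup-L values lay below all other libraries, including WT 2 and WT 4, in which Pitx1 was low as well. Grem1 was low and uneven: it ranged from 5.11 CPM in ΔBor het 1 to 16.6 CPM in Dup-C 2. The 2 Dup-L libraries, at 5.31 and 11.2 CPM, lay on either side of the WT range of 5.73 to 10.3 CPM, so that libraries of 1 genotype differed as much as genotypes did.

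Each genotype was then compared with WT, and Dup-LΔBor with Dup-L, by a quasi-likelihood test in edgeR over 17655 genes, with p-values adjusted by Benjamini-Hochberg and a threshold of 0.05. Fold changes below are log2 with a standard error (SE). All 9 genes passed the filter on low counts, Shh only through the few libraries with counts. No fold is given for it, since its groups stand at or near 0, and it passed the threshold in none of the 6 comparisons (smallest adjusted p 0.148, edgeR).

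In Dup-L against WT, Gli2, Hand2 and Smo fell. Gli2 went from 156 ± 16.8 CPM (SD, n = 4) to 101 ± 0.647 (n = 2), a change of -0.63 (SE 0.13, edgeR adjusted p 0.00342). Hand2 went from 117 ± 16.5 to 80.9 ± 2.71 CPM, a change of -0.54 (SE 0.13, edgeR adjusted p 0.00743). Smo went from 309 ± 30.02 to 254 ± 11.6 CPM, a change of -0.29 (SE 0.10, edgeR adjusted p 0.0384). The count of 3 in 9 is near the background: 32.4% of the 17655 genes passed here, 15.8% upward and 16.6% downward.

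The direct targets did not pass in Dup-L against WT. Hhip had the largest difference in size, 0.80 higher (SE 0.35, edgeR adjusted p 0.103), which left it short of the threshold although both Dup-L libraries lay above all 4 WT libraries. Gli1 differed by -0.39 (SE 0.20, edgeR adjusted p 0.153) and Ptch1 by -0.077 (SE 0.12, edgeR adjusted p 0.666). Gli3, at -0.039, and Grem1, at -0.023, lay near 0. The median over the 8 genes other than Shh was -0.18, beside 0 over all genes.

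In Dup-LΔBor against Dup-L, which shares the 2 Dup-L libraries with the comparison above, Gli2, Hand2 and Smo rose and Hhip fell. Gli2 differed by 0.59 (SE 0.13, edgeR adjusted p 0.00254), Smo by 0.44 (SE 0.10, edgeR adjusted p 0.00268) and Hand2 by 0.50 (SE 0.13, edgeR adjusted p 0.0075). Hhip went from 50.8 ± 6.21 CPM (n = 2) to 20.4 ± 8.52 (n = 4), a change of -1.32 (SE 0.35, edgeR adjusted p 0.0096). Of all genes 43.6% passed here, 21.5% upward and 22.1% downward, so 4 of 9 is again near the background. Gli1, higher by 0.48 (SE 0.20), missed the threshold in edgeR (adjusted p 0.0709) and passed in DESeq2 (adjusted p 0.0378).

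None of the 9 passed in the other 4 comparisons in edgeR. In Dup-C against WT, 0.00566% of all genes passed, and DESeq2 called 0 of the 9. An unadjusted p under 0.05 in edgeR was found for 4 of the 9, Shh among them, beside 2933 of the 17655 genes. The differences were -0.47 for Gli2 (SE 0.13, edgeR adjusted p 0.251), -0.36 for Gli3, -0.84 for Hhip (SE 0.38, edgeR adjusted p 0.297) and 0.54 for Grem1 (SE 0.38). In Dup-LΔBor against WT, 3.85% of all genes passed, and DESeq2 called 0 of the 9. Here 0 of the 9 had an unadjusted p under 0.05 in edgeR, beside 4183 of the 17655 genes. Apart from Hhip, at -0.52 (SE 0.30), all 7 other genes with a fold lay between -0.042 and 0.15.

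In the ΔBor lines, Smo, Gli1 and Gli2 stood below WT without passing in edgeR. In ΔBor het, where 4.03% of all genes passed, Gli1 differed by -0.52 (SE 0.20, edgeR adjusted p 0.124) and Smo by -0.30 (SE 0.10, edgeR adjusted p 0.0816). Of the 9, 2 had an unadjusted p under 0.05 in edgeR, as did 4573 of the 17655 genes. DESeq2 with its own filter called 1, Smo (adjusted p 0.0245), beside 2185 of 12858 genes. ΔBor hom is 1 library, so the spread behind every test of it, in edgeR and in DESeq2, comes from the other genotypes, and a call there describes that library. With 1.27% of all genes passing, Gli2 differed by -0.56 (SE 0.17, edgeR adjusted p 0.0734) and Smo by -0.36 (SE 0.13, edgeR adjusted p 0.105). DESeq2 gave -0.55 for Gli2 and -0.35 for Smo in this library. WT 1 bears on these values. Without it, Gli2 passed in Dup-C (-0.52, edgeR adjusted p 0.0298), where 1640 of 17593 genes then passed. Smo passed in ΔBor het (-0.35, edgeR adjusted p 0.0366), where 2490 of 17593 genes then passed. In the 1 library of ΔBor hom, Gli2 then differed by -0.60.

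**Figure D2:**
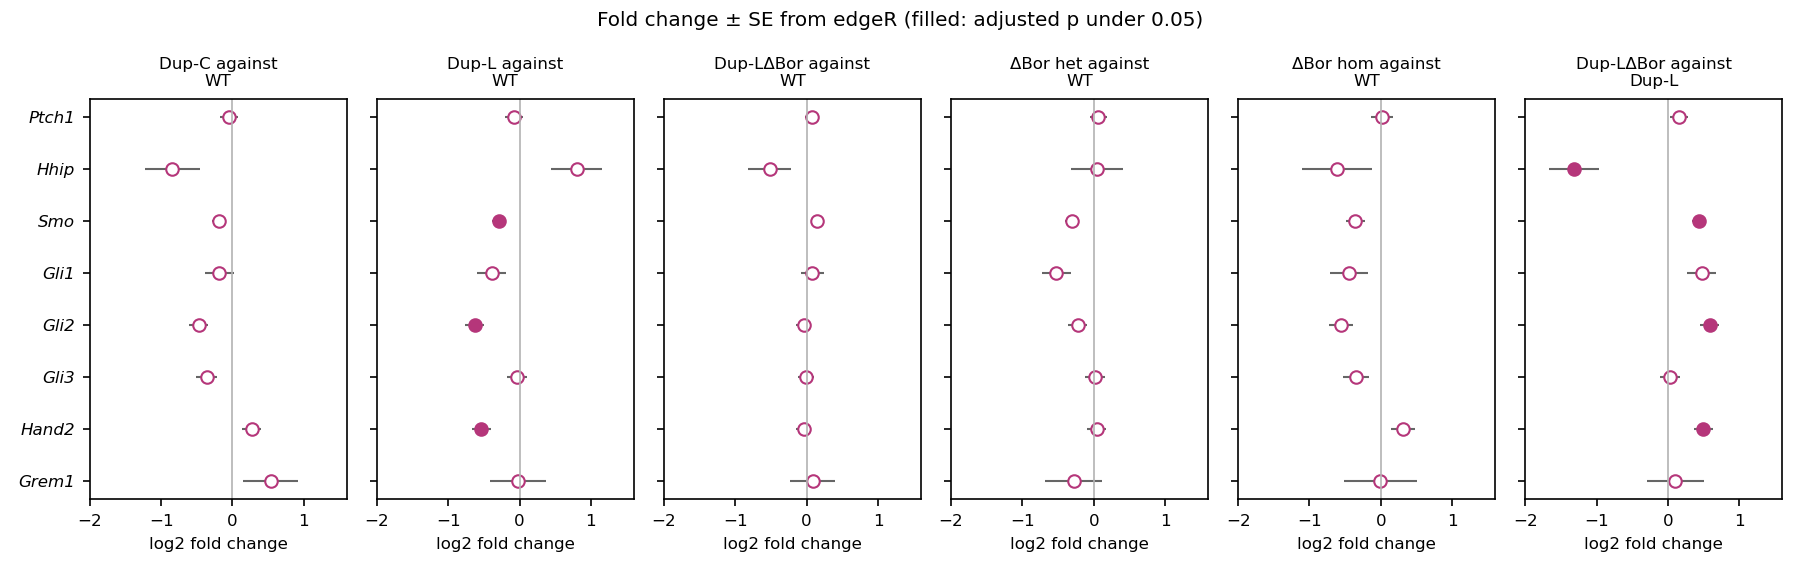
Log2 fold change (x axis) with its SE for 8 genes (rows, Shh left out) in the 6 comparisons (panels); filled points have an edgeR adjusted p under 0.05. Filled points appear only in the 2 comparisons that hold the Dup-L libraries, and Hhip lies opposite to Gli2, Hand2 and Smo in both.

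The falls in Dup-L moved with base composition. GC content and length of the transcript accounted for 41.3% of the variance of all fold changes in Dup-L against WT and 32.2% in Dup-LΔBor against Dup-L, beside 2.48% to 20.1% in the other comparisons. Gli2, Hand2 and Smo, whose transcripts are richer in GC than 87.0%, 92.9% and 87.9% of the genes tested, fell in Dup-L, while Hhip, richer than only 8.18%, was higher there. With offsets for GC and length, Gli2, Hand2 and Smo stood at 0.024, 0.039 and 0.26 in Dup-L against WT (edgeR adjusted p 0.904, 0.868 and 0.117), so that the sign turned in all 3. Against Dup-L, Dup-LΔBor then showed -0.11, -0.12 and -0.14 (edgeR adjusted p 0.412, 0.462 and 0.293), for the same 3 genes, again with the sign turned. Hhip stayed lower there (-1.0002, SE 0.36, edgeR adjusted p 0.0592), beside -1.32 without the offsets.

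With Pitx1, low in both Dup-L libraries and in 2 of WT, as a covariate, none of the 9 passed in either comparison (edgeR), and of the 17655 genes 0 did in Dup-L against WT. In that comparison Gli2 and Smo kept about their size, at -0.52 and -0.27 (edgeR adjusted p 0.088 and 0.195), and Hand2 stood at -0.32 (edgeR adjusted p 0.208). Hhip then differed by -0.22 (SE 0.50, edgeR adjusted p 0.801) and Hand2 by 0.15 (SE 0.20, edgeR adjusted p 0.654) in Dup-LΔBor against Dup-L, while Gli2 and Smo stayed at 0.42 and 0.41 (edgeR adjusted p 0.217 and 0.119). Dup-L and the low-Pitx1 WT libraries could be set side by side: Hand2 stood at 82.8 and 78.9 CPM in Dup-L and at 111 and 105 in WT 2 and WT 4, and Gli2 at 100.4 and 101.3 against 155 and 148. For Hhip the same libraries stood at 55.2 and 46.5 against 35.2 and 39.6 CPM. With the range of library numbers as a term, Gli2 (-0.55, edgeR adjusted p 0.0173) and Hand2 (-0.65, edgeR adjusted p 0.00902) passed in Dup-L against WT and Hand2 (0.72, edgeR adjusted p 0.0274) in Dup-LΔBor against Dup-L. Smo did not pass in either (-0.16 and 0.20, edgeR adjusted p 0.204 and 0.267), nor in Dup-LΔBor against Dup-L did Gli2 (0.44, edgeR adjusted p 0.131) or Hhip, whose difference grew to -1.65 (SE 0.57, edgeR adjusted p 0.0781). Single libraries also bore on the calls. Without Dup-L 2, 0 of the 9 passed in Dup-L against WT (-0.62 for Gli2, -0.49 for Hand2 and -0.23 for Smo, edgeR adjusted p 0.0531, 0.0983 and 0.277), with Gli2 and Hand2 near their size over all libraries, and Smo also missed without Dup-L 1 (0.106), WT 3 (0.0727) or WT 4 (0.0832). Smo and Hand2 missed in Dup-LΔBor against Dup-L without Dup-L 2 (0.38 and 0.45, edgeR adjusted p 0.0518 and 0.0859) and Hhip without Dup-L 1 (-1.19, edgeR adjusted p 0.07). Where 1 Dup-L library was left, its spread was taken from the other genotypes.

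**Figure D3:**
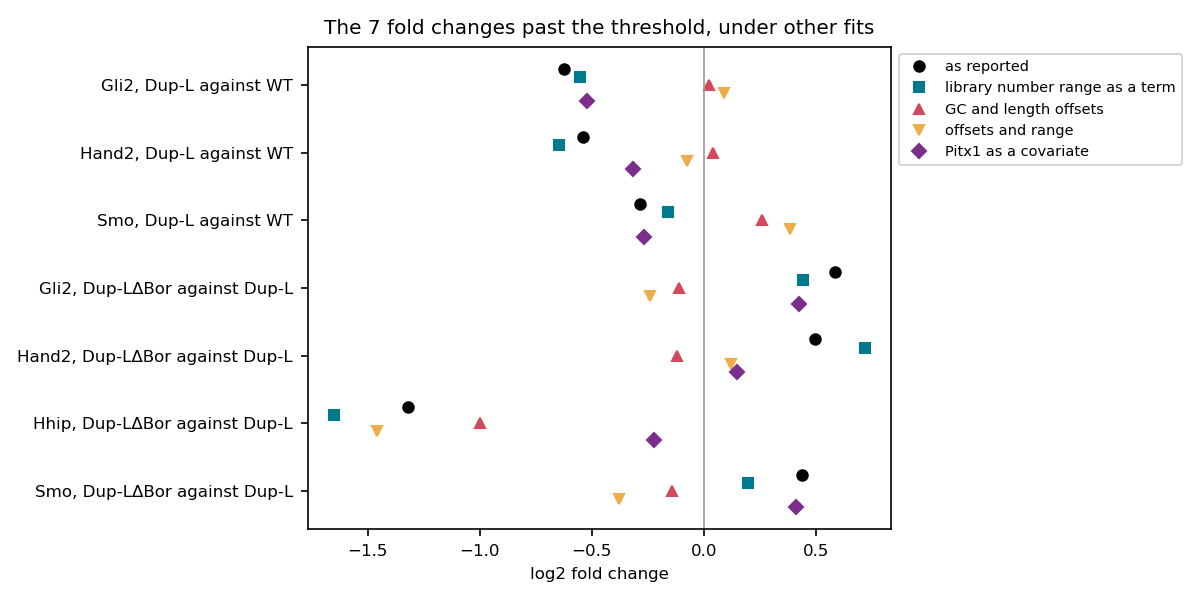
Log2 fold change (x axis) of the 7 differences past the threshold (rows) as reported and under 4 other fits (symbols). With GC and length offsets, alone or with the library number range, Gli2 and Smo cross 0 in both comparisons, and Hhip moves toward 0 when Pitx1 is a covariate.

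Across the 15 libraries, no relation of Ptch1 or Gli1 to Shh passed the test. Relations were computed on log2 CPM (prior count 2) for Shh with the other 8 genes, with a two-sided permutation test of 100000 resamples adjusted over these 8. The resamples treated the 15 libraries as exchangeable although libraries share genotypes, so differences between genotypes enter each r and its p-value. Ptch1 gave r = 0.121 (rho = 0.0595, permutation adjusted p 0.870 for r) and Gli1 gave r = -0.0405 (rho = -0.0252, permutation adjusted p 0.886 for r). Without Dup-C 2 and Dup-LΔBor R4, the libraries farthest from the median Shh, r was 0.392 for Ptch1 and 0.0945 for Gli1. Within the ranges of library numbers, Ptch1 gave 0.1001 (n = 9) and 0.1999 (n = 6) and Gli1 -0.166 and 0.280, with no adjusted p under 0.05 in either. With at most 21 counts of Shh in a library, counting error blurs the lower part of its scale. The two-sided 95% counting limits of WT 1 (6 counts) were 2.20 to 13.1, which overlap the 0 to 3.69 of a library at 0. Those of Dup-C 2 (21 counts), 13.0 to 32.1, did not.

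Hhip ran opposite to Shh. Its r was -0.804 (rho = -0.858, permutation adjusted p 0.0024 for r and 0.00112 for rho), and an r this low or lower with Shh was found in 0.997% of the genes tested. Without Dup-C 2 and Dup-LΔBor R4 it was -0.726 (permutation adjusted p 0.0402), within the first range -0.846 (n = 9, permutation adjusted p 0.0106) and within the second -0.808 (n = 6, permutation adjusted p 0.161). Among the 11 libraries with high Pitx1 it was -0.774 (permutation adjusted p 0.0165). The 5 libraries with 6 or more counts of Shh all stood at 20.8 CPM of Hhip or below, and 2 of the 10 others did so. Both Dup-L libraries, without a count of Shh, were the highest in Hhip, and the permutation p-values do not separate differences between genotypes from those within them.

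Gli3, Hand2 and Grem1 also passed over all libraries. Gli3 gave r = -0.726 (rho = -0.557, permutation adjusted p 0.00828 for r), Grem1 r = 0.689 (rho = 0.447, permutation adjusted p 0.0122 for r) and Hand2 r = 0.628 (rho = 0.668, permutation adjusted p 0.0254 for r). Without Dup-C 2 and Dup-LΔBor R4, r was -0.526 for Gli3 and 0.427 for Grem1 (permutation adjusted p 0.172 and 0.293), so these 2 relations rest on those libraries. For Hand2, r was then 0.659, no smaller than over all 15, and its permutation adjusted p was 0.0602. Within the first range of library numbers r was -0.754, 0.644 and 0.615, and within the second -0.780, 0.772 and 0.898, with no adjusted p under 0.05. Among the 11 libraries with high Pitx1, Gli3 (-0.809, permutation adjusted p 0.0106) and Grem1 (0.866, permutation adjusted p 0.0052) passed and Hand2 did not (0.503, permutation adjusted p 0.178). These 11 include Dup-C 2 and Dup-LΔBor R4, and the counting error of Shh bears on these relations too. Gli2 and Smo gave -0.313 and -0.0859 over all 15.

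Apart from the gap between its clusters, no relation of Pitx1 to the 9 genes passed. The 4 low libraries are too few for a relation, so it was computed among the 11 high ones alone, and none of 9 relations passed. Hand2 gave the largest r, 0.650 (rho = 0.582, permutation p 0.0287, adjusted p 0.258), and Hhip gave -0.252 (permutation adjusted p 0.857). Between the clusters, Hhip was the gene of the 9 whose libraries did not overlap, and the share of all genes that do so was not counted. Hand2 overlapped, at 78.9 to 111 CPM in the low and 99.9 to 147 CPM in the high libraries, as did Ptch1, at 122 to 134 and 120 to 172 CPM.

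Gli1 stood highest where Ihh stood highest. Ihh, chosen for this comparison after Shh was seen to be near absent, was at 8.05 CPM in WT 2, 7.44 in WT 4 and 6.43 in Dup-LΔBor R2, and at 1.53 to 4.47 CPM in the other 12 libraries. Those 3 libraries were also the 3 highest in Gli1, at 92.3 to 107 CPM, with the other 12 at 47.8 to 77.8 CPM. Because they stand apart, no r over all libraries is given; among the other 12, r of Gli1 with Ihh was 0.258 and rho 0.406. In all 5 genotypes with 2 or more libraries, the library highest in Ihh was also the highest in Gli1, although in Dup-L the levels of Gli1 were as close as 59.3 and 59.6 CPM. The same was so in 4 of 5 for Gli2, in 3 of 5 for Smo and Grem1, in 2 of 5 for Ptch1, Gli3 and Hand2, in 1 of 5 for Hhip and in 0 of 5 for Shh. The 8 listed cartilage genes, Ihh itself among them, summed to 1453, 1188 and 1668 CPM in WT 2, WT 4 and Dup-LΔBor R2 and to 842 to 1338 CPM in the other 12, so that WT 4 lay inside the range of the others. Of these genes Acan, the large cartilage proteoglycan, picked after its values were seen, stood at 34.4, 36.4 and 34.2 CPM in the 3 libraries and at 4.16 to 24.1 CPM in the other 12. In bulk limb buds, more cells of a type and more RNA per cell cannot be told apart, and the part of cartilage in the Gli1 level was not tested. The transcripts of Ihh and Gli1 are richer in GC than 98.1% and 92.3% of the genes tested. The part of base composition in their match was not tested, and the share of all genes with the same match to Ihh was not counted.

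**Figure D4:**
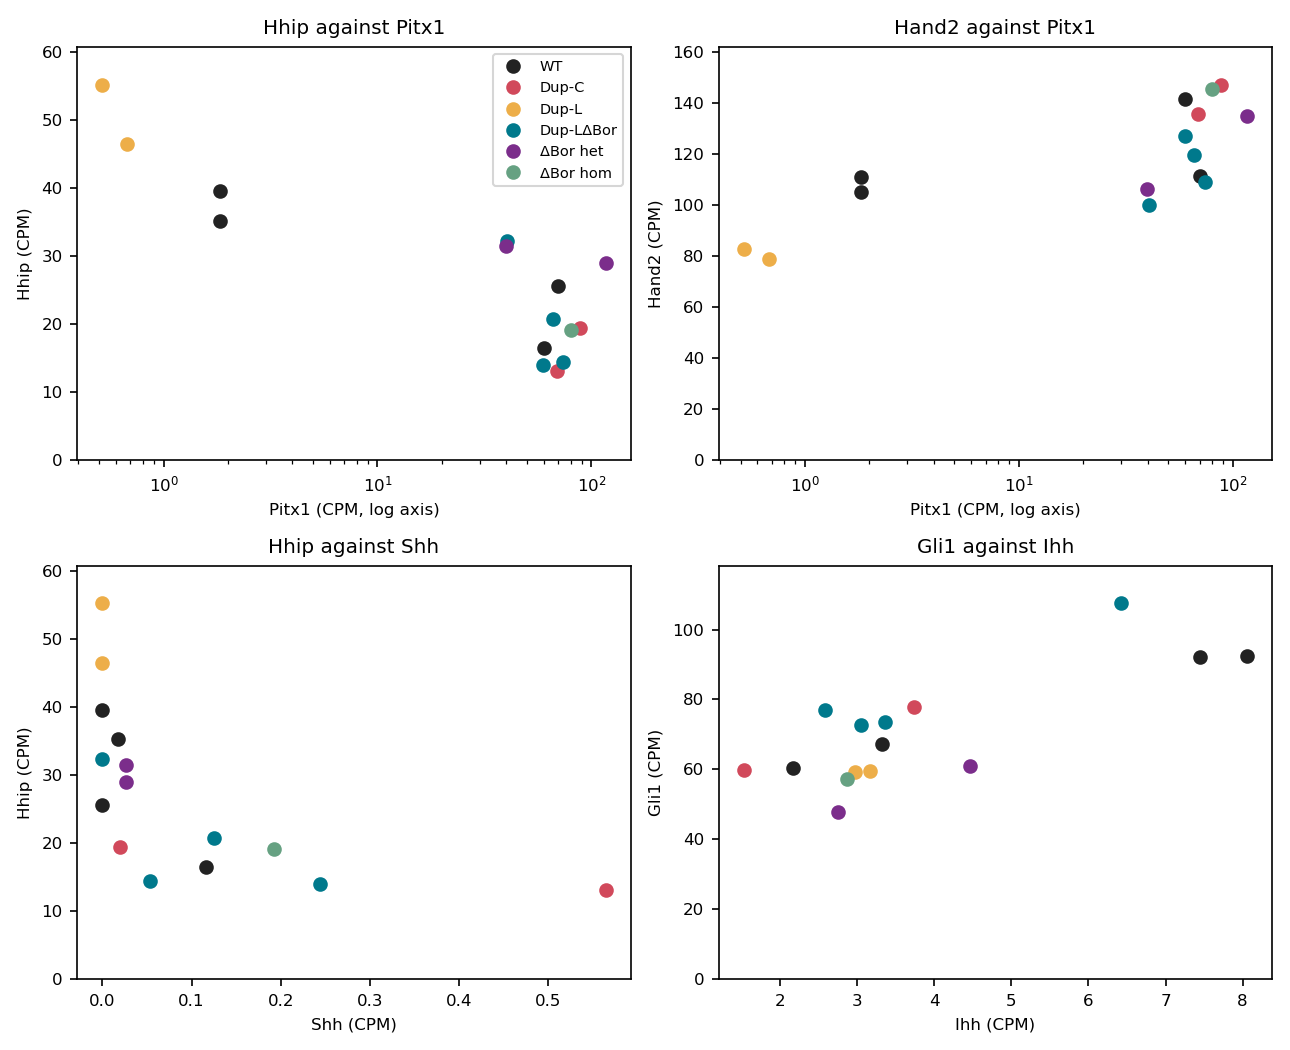
Levels in CPM of Hhip and Hand2 against Pitx1 (log x axis), Hhip against Shh, and Gli1 against Ihh, with 1 point per library coloured by genotype. Hhip is at 35.2 CPM or more in the 4 libraries at the left of its Pitx1 panel, and Gli1 is at 92.3 CPM or more in the 3 libraries with Ihh at 6.43 CPM or more.

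Among the 8 genes other than Shh, 3 of 28 pairs passed after adjustment over the pairs. Hhip and Hand2 ran opposite (r = -0.770, rho = -0.746, permutation adjusted p 0.0242), with -0.682 without the 2 farthest libraries and -0.886 and -0.707 within the ranges of library numbers. Gli1 and Smo ran together (r = 0.694, rho = 0.789, permutation adjusted p 0.0386), at 0.833 and 0.604 within the ranges. Gli2 and Smo gave r = 0.756 (rho = 0.689, permutation adjusted p 0.0242), but 0.633 in the first range and -0.246 in the second, so that this pair did not hold within ranges. Among the 11 libraries with high Pitx1, r was -0.477 for Hhip and Hand2, 0.733 for Gli1 and Smo and 0.748 for Gli2 and Smo. The transcript of Hhip is poor in GC and those of Hand2, Gli1, Gli2 and Smo are rich in it. The part of base composition in these pairs was not tested, and the test again treated libraries as exchangeable. Ptch1 and Gli1, the pair of targets, gave 0.468 (rho = 0.129, permutation adjusted p 0.246).

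The rest of the pathway was read from lists of genes by role. Counts in these lists are to be read against the share of all genes that passed, 32.4% in Dup-L against WT and 43.6% in Dup-LΔBor against Dup-L. Of 7 tested genes of ligands and ligand release, 2 passed in Dup-L against WT, both lower, where 32.4% of all genes passed and 16.6% fell. These were Scube3, a secreted carrier that helps release hedgehog ligand, at -0.90 (SE 0.11, edgeR adjusted p 0.00138), and its relative Scube1, at -1.12 (SE 0.32, edgeR adjusted p 0.0175). Scube3 stood at 42.0 and 40.04 CPM in Dup-L and at 75.6, 72.2, 86.1 and 71.5 CPM in WT, with no overlap. It also fell in ΔBor het, at 47.6 and 60.8 CPM (-0.49, edgeR adjusted p 0.0388), and the 1 library of ΔBor hom stood at 42.1 CPM (-0.86, edgeR adjusted p 0.0253, with the spread of the other genotypes). In Dup-LΔBor Scube3 stood at 79.2 to 88.3 CPM, higher than in Dup-L by 1.05 (edgeR adjusted p 5.05e-05). In that comparison 3 of the 7 passed, all higher, where 43.6% of all genes passed and 21.5% rose. The others were Scube1 and Disp2, a dispatched-family gene. There Scube3 kept its call with GC and length offsets, with the range term and with Pitx1 as a covariate. Scube1 kept its call with the range term only, and Disp2 with none of them. All 3 stayed higher in each (edgeR). With GC and length offsets, Scube3 differed by -0.32 in Dup-L against WT (edgeR adjusted p 0.024) and did not pass in ΔBor het (-0.24, edgeR adjusted p 0.105) or hom (-0.46, edgeR adjusted p 0.0536). The range term ended both ΔBor calls too (-0.45 and -0.81, edgeR adjusted p 0.155 and 0.0598), and neither line has a library in the second range. With Pitx1 as a covariate, Scube3 missed in Dup-L against WT (-0.71, edgeR adjusted p 0.0576), and Scube1 missed with the offsets (-0.57, edgeR adjusted p 0.308).

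Among the co-receptors, Gas1 fell in Dup-LΔBor against Dup-L by 0.65 on the log2 scale (SE 0.17, edgeR adjusted p 0.0054), from 331 to 211 CPM; with the range term it did not pass (-0.64, edgeR adjusted p 0.117). Cdon, Boc, Gpc3 and Lrp2 passed in none of the 6 comparisons in edgeR.

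Of 20 genes of the signal relay, 3 rose and 6 fell in Dup-L against WT, where 15.8% of all genes rose and 16.6% fell. Adrbk1, a kinase that acts on Smo, fell by 0.65 on the log2 scale (SE 0.12, edgeR adjusted p 0.00197), Arrb2, a beta-arrestin, by 0.70 (SE 0.13, edgeR adjusted p 0.002), and Evc2, a ciliary partner of Smo, by 0.45 (SE 0.10, edgeR adjusted p 0.0039). Csnk1a1, a kinase of Smo and the Gli proteins, rose by 0.49 (SE 0.11, edgeR adjusted p 0.00478). With GC and length offsets, 0 of these 9 passed in edgeR and 4 kept their sign; with the range term 7 passed. The same list had 7 higher and 5 lower in Dup-LΔBor against Dup-L, and 4 of the 12 passed with the offsets. In ΔBor het 2 rose (Csnk1a1 and Prkacb) and 1 fell (Arrb2), where 4.03% of all genes passed; with the offsets and with the range term 0 of these 3 passed and all 3 kept their sign. In edgeR 0 passed in the remaining 3 comparisons.

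Of 13 genes of transport in the primary cilium, where Smo and the Gli proteins are regulated, 5 rose and 1 fell in Dup-L against WT, beside 15.8% and 16.6% of all genes. Ift88 rose by 0.53 (SE 0.12, edgeR adjusted p 0.00392) and Ift172 fell by 0.39 on the log2 scale; with GC and length offsets 0 of the 6 passed in edgeR and all 6 kept their sign. In Dup-LΔBor against WT 1 rose, Ift122, from 1.03 to 1.97 CPM (0.94, SE 0.23, edgeR adjusted p 0.0381), which lost its call with the range term (1.06, edgeR adjusted p 0.131).

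Of 21 tested posterior and hedgehog-responsive genes, 2 rose and 4 fell in Dup-L against WT, a share of calls below the 32.4% of all genes. Tbx2, a posterior T-box gene, fell by 1.03 on the log2 scale (SE 0.19, edgeR adjusted p 0.00192), Cntfr by 0.88 (SE 0.16, edgeR adjusted p 0.00179) and Ccnd1, a cyclin, by 0.34 (SE 0.08, edgeR adjusted p 0.00718), while the digit gene Hoxd13 and its neighbour Hoxd10 rose (0.45 and 0.48, edgeR adjusted p 0.0235 and 0.029). With GC and length offsets 0 of the 6 passed in edgeR and all 6 kept their sign. In Dup-LΔBor against WT Tbx3, a relative of Tbx2, fell by 0.71 on the log2 scale (SE 0.17, edgeR adjusted p 0.0361), and in ΔBor het Bmp2 rose by 0.47 (SE 0.12, edgeR adjusted p 0.0443) and Cntfr fell; with the range term none of these 3 passed. The median of the list was -0.072 in Dup-L and -0.016 in Dup-LΔBor against WT.

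Of 9 anterior genes, 0 passed in Dup-L against WT in edgeR. Alx4, a homeobox gene of the anterior bud, fell in Dup-LΔBor against WT by 0.60 on the log2 scale (SE 0.15, edgeR adjusted p 0.0447), from 14.8 to 22.1 CPM in WT to 9.94 to 13.8 CPM, and the median of the 9 was -0.36. Pax1, a paired-box gene, fell in Dup-LΔBor against Dup-L (-1.74, SE 0.40, edgeR adjusted p 0.00294), as did Gas1, which is on this list too. Pax1 kept its call with GC and length offsets (-2.21, edgeR adjusted p 0.00205) and lost it with the range term (-1.33, edgeR adjusted p 0.157) and with Pitx1 as a covariate (-1.23, edgeR adjusted p 0.256); Gas1 lost it with Pitx1 too (-0.23, edgeR adjusted p 0.601). Of 14 genes upstream of or next to Shh and Grem1, Tbx18 and Lmbr1, the host of the distant Shh limb enhancer, rose in Dup-L against WT, Etv4, an FGF-induced factor, fell in Dup-LΔBor against WT (-0.69, SE 0.16, edgeR adjusted p 0.0381), and Hand1 stood at 0.413 CPM in the 1 library of ΔBor hom, beside 2.44 to 5.09 CPM in WT (-3.14, SE 0.71, edgeR adjusted p 0.0489, with the spread of the other genotypes). The falls of Alx4 and Etv4 did not pass with the range term (-0.34 and -0.40, edgeR adjusted p 0.324 and 0.276), nor did the difference of Hand1 (-3.26, edgeR adjusted p 0.117).

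The genes most like each of the 9 were taken as those with the highest r of log2 CPM over the 15 libraries, which share sequencing depth and base composition effects; r is given as a description. For Smo these were Sin3b (0.985), Selo (0.982) and Adcy3 (0.981), and for Hhip they were Zeb2 (0.977), Net1 (0.972) and Mdfic (0.970). Gli1 was most like Cdk10 (0.966), Psd (0.927) and Abhd14a (0.925), Gli2 most like Chd3 (0.957), Arhgef10 (0.954) and Fhl3 (0.952), and Hand2 most like Fam222a (0.956), Tspo (0.927) and Uck2 (0.927). Gli3 followed with Parva (0.897), Maml2 (0.895) and Slit2 (0.894), Grem1 with Paqr9 (0.857), Col6a5 (0.824) and Gpr62 (0.757), and Ptch1 with Gfpt2 (0.809), Foxred2 (0.760) and Egln3 (0.756). For Shh they were Hey1 (0.930), Asb4 (0.890) and Gja3 (0.880), a ranking that rests on its few counts. None of the 9 was among the 3 nearest genes of another.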

How the data were processed

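RNA-seq libraries of mouse limb buds were analysed from deposited raw counts per gene, and FPKM values deposited by the authors served only to compare levels between genes. Per the labels' protocols, polyadenylated RNA was made into libraries with a TruSeq kit. Per the submitters' processing notes STAR, DESeq2, bedtools 2.17.0 and the mm9 build were used; for the counting of reads, the tool, annotation and strand setting were not given in the sources used here. The 4 Dup-LΔBor columns are headed R2 to R5 and could be tied to their genotype only, and R4 and R5 share the library number 6758.

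Counts were fitted in R 4.3.3 with edgeR 4.0.16 (quasi-likelihood, robust, TMM factors, filter on low counts by group) over 15 libraries in 6 genotypes, leaving 17655 of 34682 genes, with Benjamini-Hochberg adjustment at 0.05. Totals were 34486256 to 53711742 counts, and for low genes such as Shh counting error is large in libraries with few counts. Relations used log2 CPM with a prior count of 2. Alternatives were DESeq2 1.42.0, limma 3.58.1 on log2(FPKM + 1) and log2(FPKM + 0.1), other scaling and filters, offsets for GC and length (GENCODE M21 transcripts, values for 91.4% of tested genes), the library number range, Pitx1 as a covariate and left-out libraries. Scripts were tested on simulated data.

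The members and lists were chosen with earlier results of these data known. Text names the 9 genes, the up to 3 genes of each list with the smallest adjusted p past the threshold, and the 3 genes most like each; Acan, Hoxd13, Hoxd10, Csnk1a1 and Ift172 (in Dup-L), and Id2, Fgf8 and the cell type markers were named after their values were seen. Some list genes are not reported here.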

Additional observations from a re-analysis of the deposited data

Results flagged for a closer look

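In 18 sets of 1 gene in the 4 libraries of WT or of Dup-LΔBor, 4 held a library whose gap to the nearest other exceeded Dixon's 95% value; chance flags about 1 set in 20. Shh stood at 0.116 CPM in WT 1, on 6 counts, beside 0 to 0.018 CPM in the other 3 WT libraries. Hand2 stood at 142 CPM in the same library, beside 105 to 111 CPM. Gli3 stood at 398 CPM in WT 3, beside 314 to 320 CPM in the other WT libraries. Gli1 stood at 107 CPM in Dup-LΔBor R2, beside 72.7 to 76.9 CPM in R3 to R5.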

How the results depend on the processing

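Of the 9 genes, 3 passed in Dup-L against WT as reported, 0 with GC and length offsets, 0 with offsets and library number range, 0 with Pitx1 as a covariate and 0 with the replicate block and offsets; without single libraries the count was 0 to 3. With the replicate block alone it was 1, Hand2 (edgeR adjusted p 0.0434), and genes called fell from 5719 to 1374. The 2 shared replicate numbers do not mark pairs in the labels, and same-numbered deviations correlated at -0.162 to 0.138. In Dup-LΔBor against Dup-L 4 passed as reported, 1 with the range term, 0 with the offsets, 0 with offsets and range, 0 with Pitx1, and 2 to 4 without single libraries. In Dup-C, ΔBor het and ΔBor hom against WT the count was 0 to 1 without single libraries, reaching 1 only without WT 1; DESeq2 called 1 in ΔBor het with either filter, and in ΔBor hom 2 with its own filter and 1 over all genes. In Dup-LΔBor against WT it was 0 throughout.

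Folds past the threshold in neither fit turned sign in 49 cases, and in 36 cases when single libraries were left out. Over the fits, Gli1 ranged from -0.71 to 0.25 in Dup-L against WT and from -0.21 to 1.02 in Dup-LΔBor against Dup-L. Where a fold passed as reported or in the other fit, signs turned, with the cause not tested, in these cases. In Dup-L against WT Gli2 stood at 0.024 with offsets, 0.091 with offsets and range and 0.068 with block and offsets, Smo at 0.26, 0.38 and 0.36, and Hand2 at 0.039 with offsets. In Dup-LΔBor against Dup-L Gli2 stood at -0.11 with offsets and -0.24 with offsets and range, Smo at -0.14 and -0.38, and Hand2 at -0.12 with offsets. The relation of Hhip to Shh missed the threshold within the second range (-0.808, n = 6, permutation adjusted p 0.161).

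Counts of all genes moved widely: 0 to 1640 in Dup-C (1 as reported), 0 to 6218 in Dup-L (5719), 66 to 1642 in Dup-LΔBor (679), 9 to 2490 in ΔBor het (712), 3 to 2750 in ΔBor hom (225) and 191 to 9173 in Dup-LΔBor against Dup-L (7704). The highest counts in Dup-C and both ΔBor groups came without WT 1. Few counts limit Shh.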

Other observations

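Of 13 BMP and FGF feedback genes, 1 rose and 6 fell in Dup-L against WT, where 32.4% of all genes passed. Msx1, a homeobox target of BMP signals, fell by 1.73 on the log2 scale (SE 0.41, edgeR adjusted p 0.00849), from 38.2 to 41.0 CPM in WT to 10.8 and 13.3 CPM. Id1 and Id3, inhibitors of basic helix-loop-helix factors, fell by 0.85 and 0.66, and Id2 rose by 0.53 (edgeR adjusted p 0.00688, 0.00432 and 0.0105). Fgf8, the ridge FGF, stood at 1.14 and 1.23 CPM in Dup-L and 2.171 to 5.909 CPM in WT (-1.55, SE 0.50, edgeR adjusted p 0.0286). With GC and length offsets 0 of these 7 passed in edgeR. In Dup-LΔBor against WT, Spry1 and Spry4, feedback inhibitors of FGF signals, fell by 0.54 and 0.58 (edgeR adjusted p 0.0248 and 0.0454), and neither passed with the range term.

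Markers of other cell types moved with the same libraries. Surface ectoderm genes, 8 in all and including Krt14 and Krt5, summed to 455 to 616 CPM in Dup-L and 620 to 979 CPM in WT, and 5 of 8 fell, where 16.6% of all genes fell. Of 6 nerve and glia genes 4 fell and 2 rose in Dup-L, where 16.6% of all genes fell and 15.8% rose. With GC and length offsets 0 of the 5 ectoderm calls and 0 of the 6 nerve and glia calls remained past the threshold in edgeR. Of the 6 nerve and glia genes 3 fell in Dup-LΔBor against WT, where 282 of 17655 genes fell. Those 3 kept their calls with GC and length offsets and with Pitx1 as a covariate, and 1 did with the range term (edgeR). Erythroid genes summed to 1655 to 2354 CPM in Dup-L, 1734 to 4920 CPM in WT and 6161 CPM in ΔBor hom. Of 8 cartilage genes 1 fell in Dup-L, Col2a1 (-0.79, SE 0.26, edgeR adjusted p 0.0328), whose sign turned with the offsets (0.095, edgeR adjusted p 0.814), and of 7 muscle genes 0 passed in edgeR in any comparison. Their part in the results was not tested.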
